A study of Drosophila melanogaster with 3 samples.

Results

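Of the 3811 reproducible binding summits of Senseless-GFP in Drosophila melanogaster embryos, 755 (19.8%, exact 95% interval 18.6 to 21.1) lay in introns, far from transcript starts. They are called far intronic summits here. Each lay within an annotated gene, in no exon of any transcript, and more than 2000 bp from the nearest annotated transcript start of any gene. The choice rests on position alone and used no signal, sequence or gene function. The assay was ChIP-seq, in which fixed chromatin is pulled down with an antibody, here one against green fluorescent protein (GFP), and its DNA is sequenced. The embryos came from 1 transgenic line, of genotype sens-GFP, that stably expresses the Senseless protein with GFP at its C-terminus. They were of mixed sex, 4 to 14 hours old, and were taken whole, so a summit cannot be assigned to a cell type. The series holds 3 biological replicates of this 1 group and no second genotype, treatment or time, and comparisons were therefore made between kinds of sequence. The reproducible list is the authors' optimal peak set under an irreproducible discovery rate threshold, on the dm6 build, and each replicate also has its own list, of 30000, 30000 and 27681 peaks.

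Senseless is a zinc finger transcription factor of the Gfi-1 family. In the fly embryo it acts in the precursors of sensory organs and in the salivary gland. In sensory organ precursors it can repress or activate genes together with proneural proteins. Its family binds DNA through a short core written here as AAATCA. Long introns of Drosophila developmental genes often hold enhancers, which act on promoters from a distance. A ChIP-seq peak in such an intron records that the protein was near that DNA in some cells of the embryo, and does not by itself say that the DNA is an enhancer or which gene it acts on. A host gene is therefore only the gene that contains the summit.

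The sequences under the strongest far intronic summits show what this DNA looks like. Each line gives the 101 bases centred on a summit, on the + strand of dm6, from the RefSeq genome sequence. They are 7 of the 9 strongest, and capitals mark the 6-base word AAATAT or its reverse complement, which gained most at far intronic summits over their flanks.

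Tlk: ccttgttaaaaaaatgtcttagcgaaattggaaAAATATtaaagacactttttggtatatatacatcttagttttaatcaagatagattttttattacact
Raf: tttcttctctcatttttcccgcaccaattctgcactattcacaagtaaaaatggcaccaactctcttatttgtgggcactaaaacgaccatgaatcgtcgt
Gug: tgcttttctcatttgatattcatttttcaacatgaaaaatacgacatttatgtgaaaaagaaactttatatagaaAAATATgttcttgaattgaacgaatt
fz: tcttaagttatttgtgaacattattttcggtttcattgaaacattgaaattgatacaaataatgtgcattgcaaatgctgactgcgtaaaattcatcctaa
aos: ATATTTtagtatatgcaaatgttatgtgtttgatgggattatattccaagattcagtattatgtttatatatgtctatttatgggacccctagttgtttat
Hr4: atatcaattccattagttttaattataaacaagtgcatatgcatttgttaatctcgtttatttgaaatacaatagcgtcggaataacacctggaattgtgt
ImpL2: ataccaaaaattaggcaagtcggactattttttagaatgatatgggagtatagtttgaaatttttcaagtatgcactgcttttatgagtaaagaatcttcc

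The first is chrX:3742148-3742248 in Tlk, which encodes a Tousled-like kinase of chromatin assembly. The second is chrX:2297687-2297787 in Raf, the kinase between Ras and MAP kinase signalling. The third is chr3L:8458267-8458367 in Gug, which encodes the corepressor Atrophin. The fourth is chr3L:14304023-14304123 in fz, which encodes the Frizzled receptor of Wnt and planar polarity signalling. The fifth is chr3L:16480513-16480613 in aos, whose product Argos is a secreted inhibitor of epidermal growth factor receptor (EGFR) signalling. The sixth is chrX:1947693-1947793 in Hr4, a nuclear receptor gene of the ecdysone response, and the seventh chr3L:4230452-4230552 in ImpL2, which encodes a secreted binding protein of insulin-like peptides. All 7 lie in introns, from 2271 bp (Raf) to 7669 bp (Gug) from the nearest transcript start. None of them holds AAATCA. The GC content of these windows ran from 22.8% in Tlk and Gug to 40.6% in Raf, the word AAATAT was present in 3 of the 7, and the Hr4 window had an unbroken run of 13 A and T bases.

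The Senseless core was first met further down the list. The lines that follow give 4 of the strongest far intronic windows with AAATCA, in capitals in either orientation.

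gpp: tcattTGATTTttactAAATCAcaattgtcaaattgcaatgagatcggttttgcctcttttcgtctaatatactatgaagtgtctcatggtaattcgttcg
ush: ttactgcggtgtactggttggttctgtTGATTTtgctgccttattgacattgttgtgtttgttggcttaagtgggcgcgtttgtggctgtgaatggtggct
Smr: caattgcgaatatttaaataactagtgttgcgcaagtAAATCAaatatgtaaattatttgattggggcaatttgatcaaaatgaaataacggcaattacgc
mgl: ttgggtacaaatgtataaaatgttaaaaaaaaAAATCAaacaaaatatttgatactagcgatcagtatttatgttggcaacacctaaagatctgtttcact

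The first, chr3R:6424069-6424169 in gpp, which encodes the Dot1 histone methyltransferase, holds the core on each strand and had signal rank 228. The second, chr2L:485820-485920, lies in ush, the gene of a cofactor of GATA factors, at rank 326. The third, chrX:12735720-12735820, lies in Smr, which encodes a nuclear receptor corepressor, at rank 358. The fourth, chrX:9486921-9487021, lies in mgl, the gene of the endocytic receptor Megalin, at rank 442.

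Far intronic sequence carried fewer summits per base than promoters and more than the DNA between genes. The sequence that could hold a far intronic summit amounts to 35.3 Mb, or 26.4% of the 6 chromosome arms, and carried 21.4 summits per Mb (exact Poisson 95% interval 19.9 to 22.9). Introns between 500 and 2000 bp from a start carried 45.1 per Mb (573 summits), the 500 bp on each side of transcript starts 83.7 per Mb (1880 summits), and sequence outside genes and more than 2000 bp from a start 13.7 per Mb (318 summits). Over all sequence the density was 28.5 per Mb. Intervals of this kind cover counting error over peaks only, and the sequencing depth of the libraries is unknown.

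The same order was found in the replicates' own lists. Each was taken down to its 3811 strongest peaks, to match the length of the reproducible list. Far intronic summits numbered 732, 733 and 768 in replicates 1, 2 and 3, which is 20.7, 20.7 and 21.7 per Mb. The mean was 21.1 ± 0.58 per Mb for far intronic, 44.2 ± 0.54 for near intronic, 84.5 ± 1.51 for promoter and 13.4 ± 0.49 for far intergenic sequence (SD, n = 3). The replicates' ranges did not overlap between any of these classes. Each difference from far intronic sequence had the same direction in 3 of 3 replicates, and the exact two-sided sign-flip test gave p = 0.25, the smallest that 3 replicates allow. By this test, no difference between classes could pass a threshold of 0.05.

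**Figure D1:**
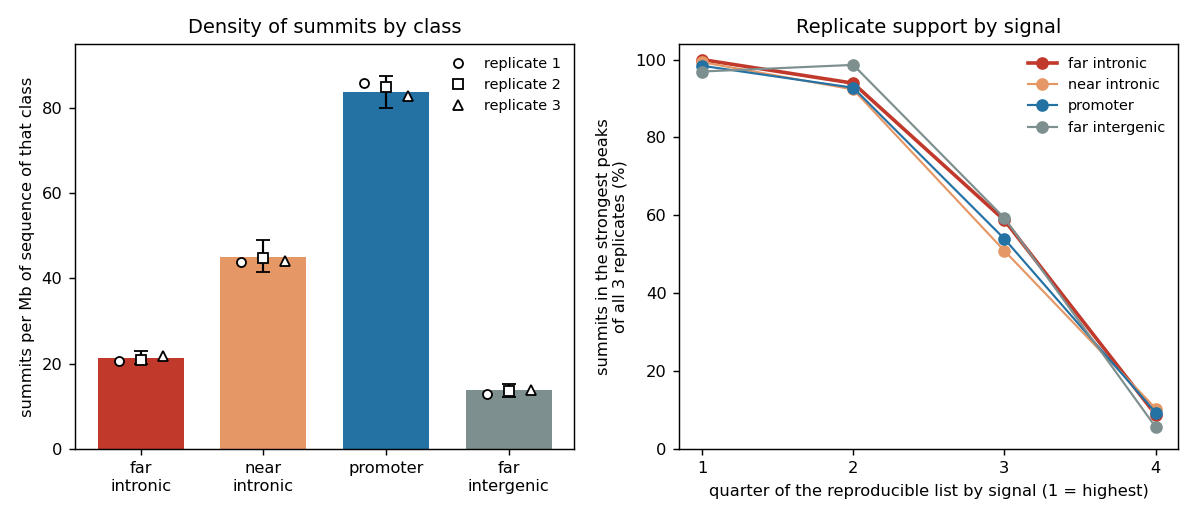
Left, summits per Mb of sequence of each class; bars are the reproducible list with exact Poisson 95% intervals, and open symbols are each replicate's own 3811 strongest peaks. Right, the percentage of reproducible summits covered by strongest peaks in all 3 replicates, in 4 equal bins of the list from the highest signal (1) to the lowest (4). Far intronic sequence stands at 21.4 per Mb, below promoters at 83.7 and above far intergenic sequence at 13.7, and its replicate support falls with signal as in the other classes.

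Far intronic summits covered most of the range of signal, but none was among the 32 strongest of the list. Signal is a score that the authors gave each peak. Its scale is unstated, so it serves only to rank peaks within a list. It ran from 139.9 to 1349 at far intronic summits, with a median of 219. The median rank was 1912 of 3811 (quartiles 1090 and 2886), against 1767 for near intronic, 1899 for promoter and 2138.5 for far intergenic summits. Only 10 were among the 100 strongest summits of the list and 174 among the 1000 strongest. With the list cut into 4 equal bins by signal, from highest to lowest, far intronic summits made up 17.0%, 22.5%, 19.3% and 20.5%, and they made up 22.2% of the next 3811 peaks of the pooled list, which missed the reproducible set. In the replicates' own lists the median rank was 1963 ± 42.8 for far intronic, 1771 ± 20.5 for near intronic, 1868.5 ± 27.7 for promoter and 2101 ± 53.8 for far intergenic summits (SD, n = 3). The 3 replicates placed the far intronic median behind that of near intronic and promoter summits and ahead of far intergenic ones (exact sign-flip p = 0.25 each, the smallest possible).

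Replicate support at far intronic summits was close to that of the whole list. Of the 755, 488 (64.6%, exact 95% interval 61.1 to 68.0) were covered in all 3 replicates by one of that replicate's 3811 strongest peaks, against 64.3% of all reproducible summits. Another 183 lay in the strongest peaks of 2 replicates, 83 of 1 and 1 of none. The share followed signal: 162 of 162 far intronic summits in the highest bin were found in all 3, then 93.9%, 58.7% and 8.72% in the next bins. Other classes took much the same course. Over the same bins the share was 98.4%, 92.8%, 53.9% and 9.29% for promoter summits. It was 99.3%, 92.3%, 50.8% and 10.3% for near intronic and 96.9%, 98.6%, 59.3% and 5.56% for far intergenic summits. The signal is that of the pool of these replicates, and pool and replicates were cut at the same 3811 peaks. A fall of support with signal is therefore largely built in. In the replicates' complete lists 748 of the 755 were covered in all 3. There, the ranks of the covering peaks correlated with Spearman coefficients of 0.71 for replicates 1 and 2, 0.66 for 1 and 3, and 0.72 for 2 and 3. These are correlations across summits of lists that are not independent of the pooled one, and are given as a description.

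The 20 strongest far intronic summits were strong in every replicate. All 20 were among the strongest 3811 peaks of the 3 replicates, and the lowest rank any of them took there was 332. The reproducible list comes from the pool of these replicates, so these ranks are a description and not independent support. The summit in Tlk ranked 33 in the reproducible list and 31, 33 and 38 in replicates 1, 2 and 3. The summit in Lrch, a gene of a leucine-rich repeat protein, ranked 43 overall and 23, 52 and 67 in the replicates. The Raf summit ranked 51 overall and 64, 59 and 43, and the Gug summit 53 overall and 45, 42 and 103. Next came fz (rank 57), whose replicate ranks were 69, 77 and 44. After it came CG12769 (rank 63), aos (65), Hr4 (68), ImpL2 (95) and JIL-1 (98), a histone H3 kinase. These 10 are the far intronic summits among the 100 strongest of the list.

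The remaining 10 of the 20 ranked from 122 to 210. They lay in babos, aop (Yan, an Ets-domain repressor downstream of MAP kinase), Pak3 (a p21-activated kinase), CG32264 and kirre (an adhesion protein of myoblast fusion). The others lay in grh (an epithelial transcription factor), lncRNA:CR44320, CG6959, upSET (a chromatin protein with a SET domain) and rib, a transcription factor gene of tracheal and salivary tube formation. For 15 of the 20 the nearest transcript start belonged to the host gene itself. The fz, JIL-1 and CG6959 summits lay nearest to annotated transposable elements, the ImpL2 summit to CG46460 and the lncRNA:CR44320 summit to CG12290. Some lay far from the first start of a long host gene: the kirre summit, at X position 3097207, was 356823 bp into the gene but 2343 bp from another kirre start.

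The DNA under far intronic summits was poor in G and C over a narrow stretch. In the 101 bp windows GC content averaged 33.1% at summits, against 41.7% in windows centred 500 bp to each side. It was lower at the summit than in its flanks for 605 of the 755 summits (80.1%). Sequence that could hold a far intronic summit averaged 40.6%. Between summits the spread was wide, from 13.9% to 63.4% (SD 7.41). Far intronic windows of the replicates' own lists averaged 33.8% ± 0.87 GC, and their flanks 41.6% ± 0.29 (SD, n = 3; lower at summits in 3 of 3, exact sign-flip p = 0.25). Windows of 51 bp showed 32.1% at the summit, 41.1% at 100 bp above it, a shoulder of 44.9% at 250 bp below and 44.6% at 250 bp above it, and 39.9% and 40.02% at 1000 bp below and above. Far intronic summits shared this dip with near intronic summits (32.9% at summits, 42.1% in flanks), promoters (35.1% and 45.2%) and far intergenic summits (32.9% and 42.7%). Few flanks reached an exon, since 47 of the 755 summits lay within 500 bp of the end of their intron.

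**Figure D2:**
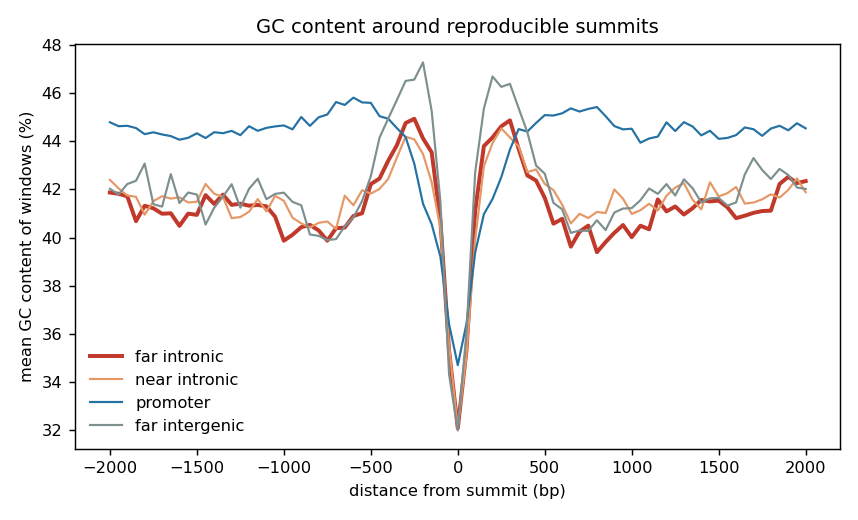
Mean GC content of 51 bp windows against distance from the summit, in steps of 50 bp, for 4 classes of reproducible summits. The far intronic curve drops to 32.1% at the summit and has shoulders of 44.9% and 44.6% at 250 bp to either side; the dip is present in all 4 classes.

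Short words made of A and T were the ones that gained most at far intronic summits. All 2080 words of 6 bases, each counted with its reverse complement, were compared between summits and the flank at lower coordinates by an exact two-sided McNemar test over summits, adjusted by Benjamini-Hochberg over the 2080. At an adjusted p of 0.05, 178 words (8.56%) were more frequent at summits and 287 (13.8%) less frequent. Of the 36 words with no G or C, 32 were more frequent and 0 less. Of the 192 with 1 G or C, 107 were more frequent and 0 less. Of the 492 with 4, 2 were more frequent and 132 less, and of the 36 with 6, 0 were more frequent and 16 less. Gains and losses thus went along with base composition for most words, but not for all: 8 words with 3 G or C and 2 with 4 were more frequent at summits. Its part in any single word was not tested.

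The word with the largest gain was AAATAT, found at 35.4% of summits and in 14.4% of flanks (adjusted p = 5.84e-18, exact McNemar test). In replicates 1, 2 and 3 it stood at 33.6%, 37.4% and 32.4% of summits and in 14.3%, 15.4% and 16.02% of flanks. It was followed by TAAATA (a gain of 16.2 percentage points), AAATAA (14.7 points), AAAATA (14.2 points) and ATTTAA (13.6 points). These gains were not particular to far intronic summits. AAATAT gained 20.9 points there, and 17.8 at promoter, 16.2 at near intronic and 22.6 at far intergenic summits. The words that followed it also gained in each of these classes. The largest losses were those of GGGAAA (4.50% at summits, 11.4% in flanks, adjusted p = 4.46e-05, exact McNemar test), GGAAAA (-6.62 points), GTGGCA (-6.09 points), CTGCCA (-5.56 points) and CCACTC (-5.56 points). Against the flank at higher coordinates these 10 words kept their directions and passed.

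The Senseless core AAATCA was present at 118 far intronic summits (15.6%, exact 95% interval 13.1 to 18.4). The flanks at lower coordinates held it in 9.67% (adjusted p = 0.00684, exact McNemar test over the 2080 words), but those at higher coordinates in 11.8%, where the difference did not pass (adjusted p = 0.123). It did not pass either among the 375 far intronic summits in the higher-signal part of the list, its 1905 strongest summits of any class (adjusted p = 0.47), without replicate 2 (0.21) or without replicate 3 (0.0732), which leave fewer summits, all by exact McNemar tests. Of all 101 bp windows of sequence that could hold a far intronic summit, 12.4% held the core. In the replicates' own lists the core was at 15.2%, 14.3% and 13.9% of summits and in 9.15%, 9.96% and 10.4% of lower flanks, higher at summits in 3 of 3 (exact sign-flip p = 0.25). Its gain of 5.96 points ranked 71 of 2080 words and 9 of the 30 rearrangements of its letters, of which CAAATA gained most (12.98 points). Among 192 words with 1 G or C it ranked 41, where the median gain was 4.11 points.

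The core was less frequent at far intronic summits of higher signal, a trend that was not tested. It was absent from the 20 strongest far intronic windows, and the summits that held it had a median rank of 2138.5, against 1873 for those without. Over the 4 bins of the list from the highest signal to the lowest it was at 11.1%, 15.4%, 16.8% and 18.5% of far intronic summits. Other classes of summit held it at 15.7% (near intronic), 13.6% (promoter) and 11.9% (far intergenic, exact 95% interval 8.60 to 16.03, which covers the far intronic share).

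Among 14 other motifs, the forkhead core TGTTTA stood furthest above its flanks. It was found at 156 far intronic summits (20.7%, exact 95% interval 17.8 to 23.7) and in 9.27% of the lower and 11.9% of the higher flanks (adjusted p = 1.04e-07 and 0.000156, exact McNemar tests). Forkhead proteins are winged helix factors, and in the fly embryo they act in the salivary gland and gut. The replicates' own summits held TGTTTA at 20.6%, 18.8% and 19.4%, with gains of 12.02, 9.96 and 10.03 points over lower flanks. Of all windows that could hold a far intronic summit, 9.98% held it. Its gain ranked 10 of 2080 words and 2 of the 192 words with 1 G or C. Promoter summits held it at 15.5%, near intronic at 17.3% and far intergenic at 12.6%. In the windows printed above, aos has it at 2 positions and Hr4 at 1, on either strand. A match of 6 letters says that the word is there and not that a forkhead protein binds it.

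4 other motifs passed against the lower flank. The A tract AAAAAA stood at 28.2% of summits, against 20.7% of lower and 21.3% of higher flanks (adjusted p = 0.00838 and 0.0185, exact McNemar tests), and at 21.3% of all windows that could hold a far intronic summit. The GAGA factor's GAGAG was less frequent, at 9.80% of summits against 16.8% and 14.6% of flanks (adjusted p = 0.0014 and 0.0393, exact McNemar tests) and 11.4% of all such windows. The GATA motif AGATAA, at 9.93% of summits and 5.69% of all such windows, passed against the lower flank (5.56%, adjusted p = 0.0187) but not the higher one (6.62%, adjusted p = 0.101, exact McNemar tests). The Notch effector motif of Su(H), TGGGAA, at 4.24% and 6.70%, was likewise below the lower flank (8.48%, adjusted p = 0.00872) and did not pass against the higher one (6.89%, adjusted p = 0.115, exact McNemar tests). Of these 4, each also failed to pass in at least 1 setting with fewer summits, while TGTTTA passed in all 7 alternatives run (adjusted p at most 0.000156).

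The remaining 9 motifs did not pass against either flank. The homeodomain word TAATTA was at 9.67% of summits (7.58% of all windows that could hold one), the Exd-Hox word TGATTNAT at 3.31% (3.12%), the E-box CANNTG at 37.6% (40.2%) and the Sox word ACAAT at 29.8% (26.7%). The Zelda word CAGGTA was at 2.78% (1.82%), the Grainyhead word AACCGG at 1.06% (1.86%), the BEAF-32 word CGATA at 10.3% (10.2%), the Ets word CCGGAA at 1.06% (2.46%) and the repeat CACACA at 8.74% (9.91%). All motifs were searched on both strands in the same windows, and no 2 far intronic windows overlapped. The BEAF-32 word, that of an insulator protein found near promoters, was at 21.9% of promoter summits.

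**Figure D3:**
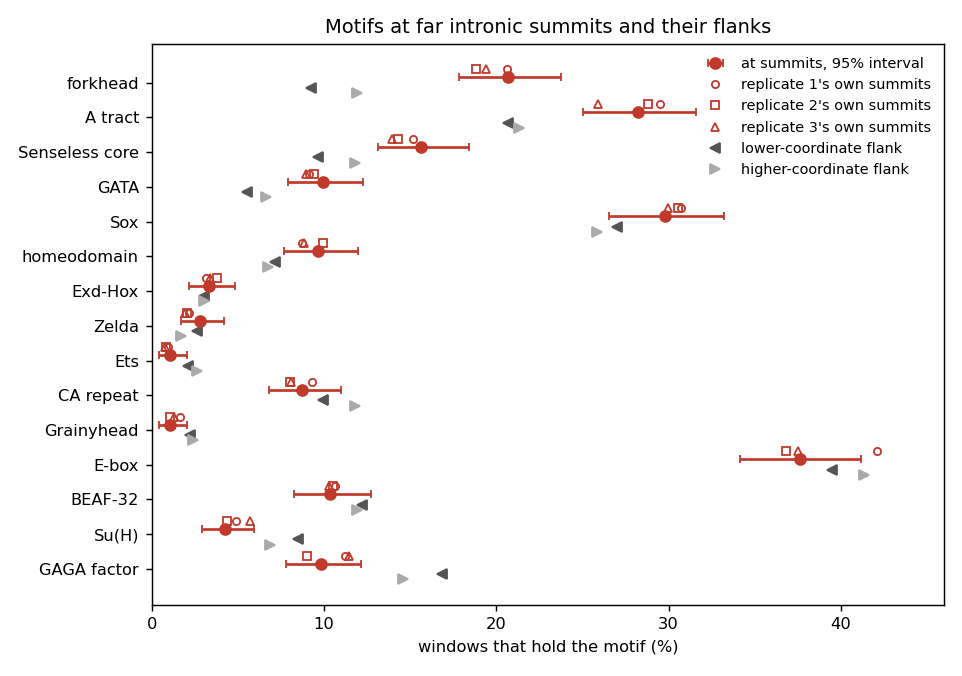
Percentage of 101 bp windows that hold each of 15 motifs. Filled circles are far intronic summits with exact 95% intervals, open symbols each replicate's own far intronic summits, and triangles the flanks 500 bp away. The forkhead word stands at 20.7% of summits against 9.27% and 11.9% of flanks, and the Senseless core at 15.6% against 9.67% and 11.8%.

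Far intronic summits sat in introns much longer than the usual fly intron. The median length of the exon-free stretch of the host gene around a summit was 12616 bp (quartiles 7017 and 22221; range 493 to 108407), against 77 bp for all annotated introns. The rule sets a distance from starts and no intron length, but longer introns hold more eligible bases. The median of 12616 bp is also taken over summits and that of 77 bp over introns, so they differ in kind. Weighted by base, the sequence that could hold a far intronic summit lay in stretches with a median of 14905 bp, longer than the summits' own median. Within that sequence, stretches of 5 to 10 kb were the densest, with 34.8 summits per Mb (191 summits, 30.02 to 40.1). Density was 14.0 per Mb under 5 kb, 29.04 in 10 to 20 kb, 21.2 in 20 to 50 kb and 7.68 over 50 kb (44 summits, 5.58 to 10.3). In the replicates' own lists the 5 to 10 kb stretches had 33.9 ± 1.37 per Mb and those over 50 kb 7.97 ± 0.36 (SD, n = 3), and the ranges did not overlap.

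Density fell with distance from transcript starts. From the nearest start it was 29.98 per Mb at 2 to 3 kb, 27.8 at 3 to 5 kb, 21.9 at 5 to 10 kb, 14.3 at 10 to 20 kb and 6.42 beyond 20 kb (22 summits, exact Poisson 95% interval 4.02 to 9.72). The replicates' means over the same steps were 31.3 ± 0.67, 27.8 ± 1.10, 20.9 ± 0.37, 13.6 ± 0.83 and 5.64 ± 1.47 per Mb (SD, n = 3). The median distance was 4906 bp, against 6472 bp for the sequence that could hold a far intronic summit. The most remote summit, in hth, lay 49811 bp from the nearest start. Distance and intron length can move together, but a short stretch can also lie far from every start. The strongest N summit lay 10591 bp from the nearest start in a stretch of 4245 bp. The parts of distance and intron length were not told apart. The median signal rank was 1887 and 1670 in the steps up to 5 kb. Beyond 5 kb signal was weaker, with median ranks of 2111, 2301.5 and 2024. The course over the 5 steps was not steady, and it was not tested.

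**Figure D4:**
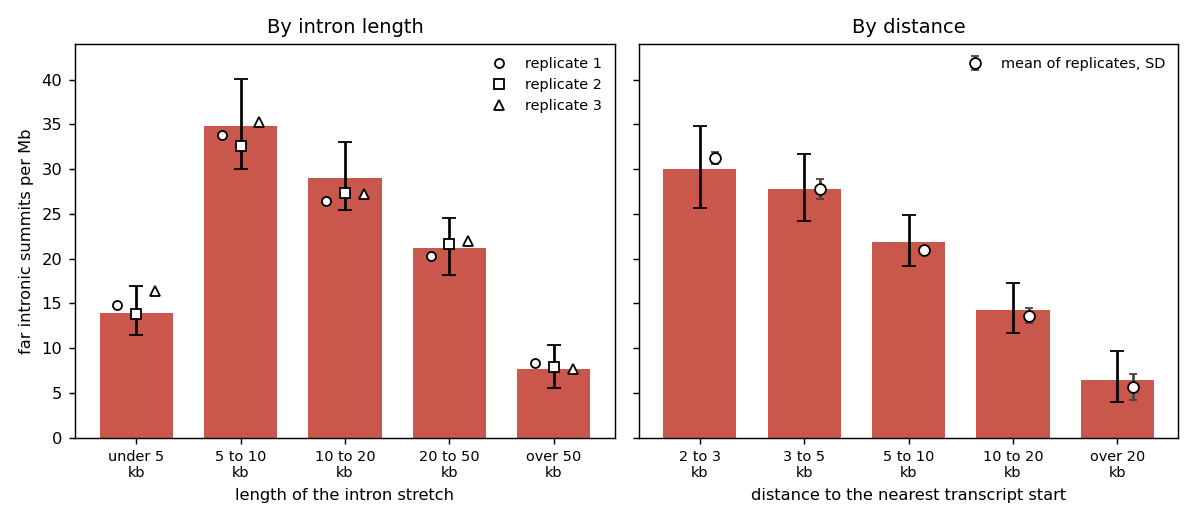
Far intronic summits per Mb of sequence that could hold one, by the length of the exon-free stretch of the host gene (left) and by distance to the nearest transcript start (right). Bars are the reproducible list with exact Poisson 95% intervals; open symbols are each replicate's own list (left) or the mean of the 3 with SD (right). Density is highest, 34.8 per Mb, in stretches of 5 to 10 kb and falls to 6.42 per Mb beyond 20 kb from a start.

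The summit's nearest start belonged to the host gene in 442 of 755 cases (58.5%). In 132 it belonged to another protein-coding gene, and in 87 to an annotated transposable element, which the annotation lists among its genes. By position in a transcript of the host, 306 summits (40.5%) lay in a first intron. The same shares of eligible sequence are not given, and the distance rule can shape them. These counts therefore show no preference of the summits. With the exon-free stretch cut into 3 parts of equal length, 302 summits lay in the central part and 224 and 229 in the outer ones. For these parts, too, the share of eligible sequence is not given. The summits nearest to the 2000 bp limit were those in Dys at 2007 bp and lncRNA:CR44320 at 2012 bp among those kept, and those left out lay in NFAT at 1999 bp and coro at 1995 bp. Their signal values were 216.9, 700.7, 219.3 and 183.1. Between 2000 and 2200 bp there were 32 far intronic summits, and 55 intronic summits were left out between 1800 and 2000 bp.

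Far intronic density was highest on X, at 25.7 per Mb (175 summits, 22.1 to 29.8), followed by 2L at 22.9, 3L at 21.3, 2R at 21.2 and 3R at 17.8 (178 summits, 15.3 to 20.7). In the replicates' own lists X had 25.1 ± 2.33 and 3R 17.98 ± 1.17 per Mb (SD, n = 3), while 2L (22.0 ± 0.54), 2R (21.2 ± 1.75) and 3L (20.9 ± 0.82) differed from their neighbour in this order by less than the SD of 2R. Chromosome 4 had 0 in 0.077 Mb, a stretch too short to separate from the others, since its interval reaches 48.1 per Mb.

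Many far intronic summits lay close to another one; chains were set by distance alone and can span more than 1 intron. Joining neighbours up to 5 kb apart gave 603 groups, of which 484 were single summits. The other 271 summits (35.9%) formed 119 chains, 27 of them with 3 or more summits. In the replicates' own lists 36.7%, 36.0% and 35.3% of far intronic summits were in such chains. Counting any reproducible summit as a neighbour, 382 of 755 (50.6%) had one within 5 kb, against 59.9% of near intronic, 46.4% of promoter and 48.7% of far intergenic summits.

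The largest chain, of 6 summits over 8704 bp, lay in Raf, in 1 exon-free stretch of 43637 bp. The strongest of these summits lay 2271 bp from the Raf start, at X position 2297737. The other 5, at 2299195, 2300695, 2302277, 2304103 and 2306441, ranked 370, 365, 686, 493 and 3266. All but the last were among the strongest peaks of all 3 replicates. The second chain had 5 summits over 9132 bp in sbb, which encodes a transcriptional corepressor, with ranks from 351 to 3546, and 3 of them were in all 3 replicates. The third had 4 summits over 10226 bp in ush, with ranks from 294 to 2373, again with 3 in all 3 replicates. Other chains of 3 included those in Lrch (1198 bp wide, ranks 43 to 791) and Hr4 (7509 bp wide, ranks 68 to 2813).

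The 755 summits lay in 440 host genes, of which 430 were protein-coding. Where genes overlap, the host is the shortest protein-coding gene around the summit, and 26 summits had more than 1. A single summit was found in 264 hosts, and the 176 hosts with more held 491 summits (65.0%). Most summits lay in kirre, with 9 along a gene of 394149 bp. Their ranks ran from 154 to 3341, and 6 were in all 3 replicates. The 9 fell in the distal part of the gene, from 244997 to 356823 bp after its first start. Next came hth, which encodes a homeodomain cofactor of Hox proteins, with 8 summits of lower signal (ranks 1448 to 3580; 2 in all 3 replicates). Then came sbb with 7 and Eip75B, an ecdysone-induced nuclear receptor gene, with 7, of which 6 were in all 3 replicates. Of the Eip75B summits, those at 3L positions 18005198 and 18005398 lay 200 bp apart and inside the same peak of replicates 1 and 3.

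6 summits each lay in Raf, tara (a nuclear protein gene of the Trithorax group) and CG43658. 5 each lay in fz, Hr4, ush, apt (a transcription factor gene), RapGAP1, mam (the Notch coactivator Mastermind), CG46458, SKIP, Tet and lncRNA:CR32773. These genes differ widely in size, and per Mb of their own eligible sequence they had 429.3 in Raf, 245.5 in apt, 238.8 in tara and 149.7 in sbb, against 71.01 in hth, 40.4 in SKIP and 38.6 in kirre. In replicates 1, 2 and 3 the counts were 9, 7 and 9 for kirre, 5, 7 and 7 for hth, 7, 9 and 8 for sbb and 5, 6 and 6 for Raf. Those of Tet were 7, 4 and 3.

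**Figure D5:**
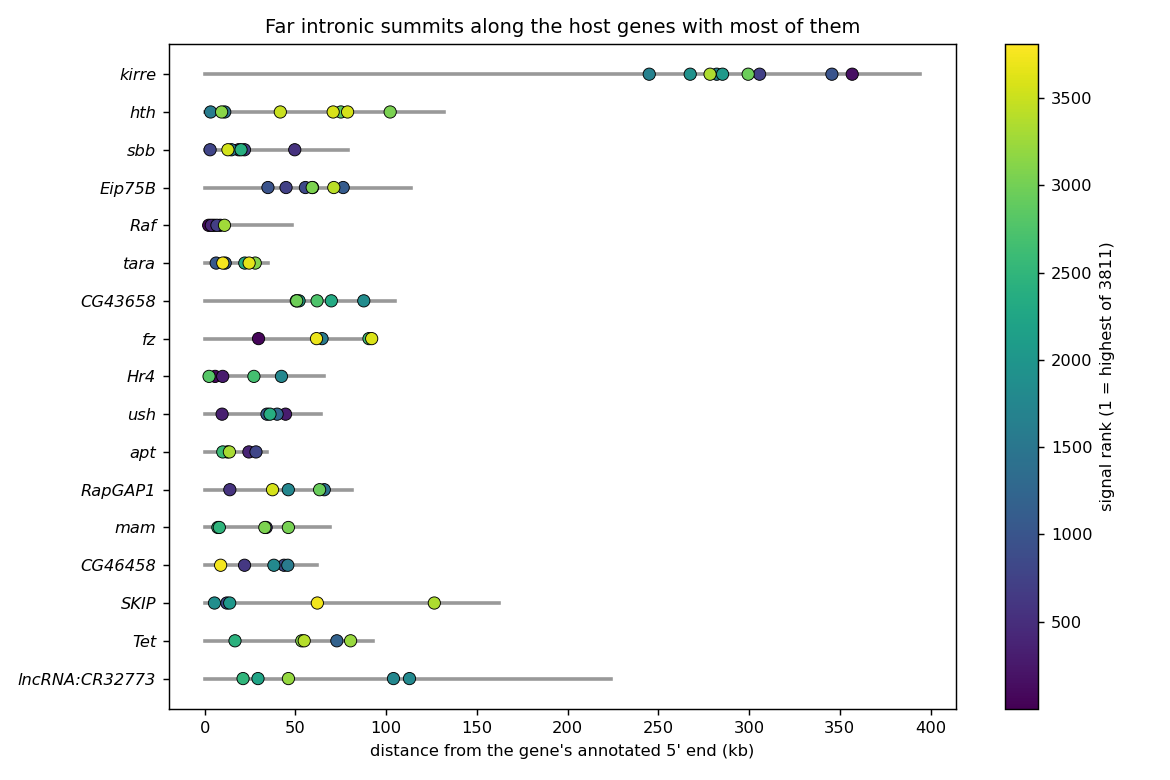
Far intronic summits along the 17 host genes with 5 or more, as distance in kb from the annotated 5′ end of the gene; grey lines span the gene and colour gives the signal rank (1 = highest of 3811). The 6 Raf summits gather from 2271 to 10975 bp after its start, while the 9 in kirre begin 244997 bp into the gene.

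Hosting a far intronic summit was common among genes with long introns. Of 2142 protein-coding genes with at least 1 kb of eligible sequence, 428 (20%) held one. The share was higher the more such sequence a gene had, from 2.51% of genes with 1 to 2 kb to 45.6% of those with over 50 kb. Density took another course, at 19.4, 39.5, 34.9, 31.8, 21.7 and 11.8 per Mb over 6 steps of size, and was 21.5 per Mb over all these genes. Counts for gene groups are therefore given per Mb of eligible sequence. The lists overlap in members and were drawn up with earlier results of these data known, so they describe these genes and were not tested.

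Of 12 EGFR pathway genes with eligible sequence, 8 held far intronic summits, 21 in all, or 82.0 per Mb (exact Poisson 95% interval 50.8 to 125.3; replicates 78.1 ± 3.90, SD, n = 3). They included Raf, aos and aop, already named, and S, the gene Star of EGFR ligand processing, with 4 summits whose strongest ranked 215. Raf alone held 6 of the 21, in 1 chain. All eligible genes had 21.5 per Mb, and those with 2 to 20 kb of eligible sequence 31.8 to 39.5. The S summit ranked 135, 479 and 154 in replicates 1, 2 and 3, and the aos summit 57, 61 and 95. Together these genes span the receptor's ligand processing (S), its secreted inhibitor (aos), its kinase cascade (Raf) and a nuclear repressor at its end (aop).

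Genes of the sensory lineage in which Senseless acts had few far intronic summits in number, in little sequence. Of 12 proneural and sensory organ genes with eligible sequence, 6 held 7 summits, 59.4 per Mb (23.9 to 122.4; replicates 53.8 ± 17.7, SD, n = 3). The strongest was in the Notch receptor gene N, at X position 3162549, with rank 329 and ranks 317, 307 and 377 in the replicates. Others lay in pros (rank 1151), a homeodomain factor gene of neural precursors, in phyl (rank 1698) and in sens itself. The sens summit, at 3L position 13397904, lay 3221 bp from the sens start in a stretch of 1930 bp. It ranked 2281 overall and 1303, 2728 and 2502 in replicates 1, 2 and 3. Of 10 Notch pathway genes, 3 held 8 summits (41.3 per Mb, 17.8 to 81.4). They were N with 2, mam with 5 (strongest rank 553) and kuz, an ADAM protease gene, with 1 at rank 3791.

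A further 7 groups had from 42.9 to 140.8 per Mb, against 21.5 per Mb for all eligible genes. This is a description: genes with 2 to 20 kb of eligible sequence had 31.8 to 39.5 per Mb as a whole, and chained summits are counted one by one. Polycomb and Trithorax group genes had 5 summits in 3 of 5 genes, 140.8 per Mb (45.7 to 328.5), of which trx had 3 with best rank 255, Psc 1 at rank 633 and skd 1 at rank 1750. Ecdysone cascade and nuclear receptor genes had 18 in 6 of 14 genes (48.1 per Mb, 28.5 to 76.1), led by Hr4 and Eip75B, with Eip78C and Eip74EF at ranks 2008 and 2229. Cell polarity and junction genes had 24 in 12 of 20 genes (46.1 per Mb, 29.5 to 68.5), led by fz, with cno at rank 424, Fas3 at 554 and ed at 874. Protein kinase and phosphatase signalling genes had 21 in 14 of 28 genes (42.9 per Mb, 26.5 to 65.5). The strongest were lilli at rank 453, InR at 475, msn at 592 and Btk at 627. Of these, lilli is in the list but is not itself a kinase or phosphatase gene. Salivary gland and secretory genes had 13 in 5 of 12 genes (45.6 per Mb, 24.3 to 78.04), but hth alone held 8 of the 13. The strongest were rib at rank 210, sn at 820, hth at 1448 and CrebA, the master factor of secretory capacity, at 1483. Segmentation genes had 7 in 5 of 9 genes (60.7 per Mb, 24.4 to 125.2), with nkd at rank 600, ptc at 1290, cad at 2123 and wg at 2785. GATA factor genes and partners had 6 in 2 of 5 genes (72.5 per Mb, 26.6 to 157.8), of which ush held 5 and grn 1 at rank 2211.

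Another 4 groups had from 20.9 to 37.3 per Mb, and all but the axon guidance group were also above 21.5. Mesoderm and muscle genes had 22 summits in 9 of 20 genes (33.7 per Mb, 21.1 to 51.1), with kirre, dpp at rank 591, how at 782 and Mef2 at 869. Hox genes and cofactors had 10 in 3 of 12 genes (31.1 per Mb), of which hth held 8, pb 1 at rank 1768 and lab 1 at rank 3002. Glial genes had 3 in 2 of 8 genes (37.3 per Mb), with pnt at rank 536 and pros at 1151. Axon guidance and neuronal adhesion genes had 33 in 15 of 33 genes, but only 20.9 per Mb (14.4 to 29.3) of their long introns, with kirre, Fas3, caps at rank 640 and Ten-a at 666.

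Ion channel genes stood lowest. Only 3 of 28 held a far intronic summit, 3.69 per Mb of 0.813 Mb (0.761 to 10.8; replicates 2.87 ± 1.88, SD, n = 3). They were Ih at rank 1447, Shal at 2255 and Shab at 3554, with 1 summit each. RNA-binding protein genes had 17 summits in 10 of 21 genes (12.4 per Mb, 7.21 to 19.8), led by Rbfox1 at rank 355, shep at 773, how at 782 and bru2 at 915. These 21 genes hold 1.37 Mb of eligible sequence, and their density was close to the 11.8 per Mb of all genes with over 50 kb of it. The part of gene size in these values was not tested.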

How the data were processed

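The authors deposited narrowPeak lists of each of the 3 replicates, of the pooled replicates (28357 peaks) and of the reproducible set, which is exactly the strongest 3811 of the pooled list. Each deposited peak carries the authors' signal value, a −log10 q-value and a summit offset. As to the aligner and the caller, their names were not given in the sources used here. Lists on dm3, whose text notes name a control as an input, were not used; the notes of the dm6 lists name none. Chromatin was sonicated to 200 to 800 bp, per the labels.

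Summits were classed on Ensembl release 115 genes of the same assembly, transposable elements included (5809 of 23973 annotated genes). Sequence came from the RefSeq genome. Tests were exact McNemar tests over summits and exact sign-flip tests over replicates, and intervals were exact binomial or Poisson at 95%. The word test was tried on simulated data. Members and lists were chosen with earlier results of these data known. Of 420 list entries, 5 had no match in the annotation, and 1 list and 1 window sequence are not reported here. Genes named in the text hosted one of the 20 strongest summits, 5 or more summits, one of the 3 largest chains, or up to 4 of the strongest summits of a list, or lay nearest the 2000 bp limit; gpp, Smr, mgl, CG46460 and CG12290 are named for their sequences or starts. Python 3.11.15, numpy 2.4.6, pandas 2.3.3, scipy 1.17.1 and matplotlib 3.10.9 were used. Alternatives covered distance, annotation, windows, flanks, chains, the 1905 summits with the highest signal and each replicate left out. Depth is unknown, and p-values over replicates measure only the spread between these 3.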

Additional observations from a re-analysis of the deposited data

How the results depend on the processing

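The share and density of far intronic summits followed the distance limit: 27.7% and 24.5 per Mb beyond 1000 bp, 9.63% and 16.8 per Mb beyond 5000 bp. With protein-coding genes only they were 21.9% and 19.7 per Mb. Without annotated transposable elements, an alternative chosen after seeing the data, they were 20.8% and 19.2 per Mb, where 38 summits joined the 755 and none left. Among the 1905 summits with the highest signal, density was 10.6 per Mb, the median rank 1087, replicate support 96.8%, chained summits 21.3%, hosts 272, words called 134 and other motifs passing 1 (5 in the whole list), and AAATCA gained 3.47 points without passing. Density, the median rank and the numbers of hosts and chains fall there by construction, since fewer summits enter.

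Leaving out each replicate kept only the reproducible summits among the strongest of both others. The share was then 19.5% to 20.2%, density 15.1 to 16.2 per Mb, the median rank 1430 to 1520.5, support in both others 70.5% to 76.03%, chained summits 27.4% to 30.8%, the median intron stretch 12616 to 13194 bp, words called 219 to 300 and other motifs passing 2 to 3. The AAATCA gain was 3.95 to 5.57 points, and passed without replicate 1 alone. GC content at summits minus flanks stayed between -8.82 and -8.04 points and hosts between 343 and 354. Density and the number of hosts fall here too by construction, since fewer summits enter. Support in both others cannot be below support in all 3 replicates.

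Support was 60.7% where summits had to lie within 100 bp of each other and 92.8% with 2 times as many strongest peaks. The GC difference was -6.06 points in windows of 100 bp on each side and -7.23 against flanks 1000 bp away. Those flanks gave 283 words called and an AAATCA gain of 3.44 points that did not pass, and the higher-coordinate flank gave 3.84 points, not passing, and 3 other motifs. The median intron was 15726 bp for the host's longest transcript. Chains with gaps up to 2000 and 10000 bp held 21.2% and 50.5% of summits. Of 98 values for single motifs, 14 no longer passed and no motif that passed changed sign; E-box, BEAF-32 and Exd-Hox, which did not pass, changed sign in some settings without passing. Apart from the changes described above as set by construction, causes were not tested. Depth is unknown, so no limit from it can be given. No paired analysis was possible because the series has 1 group, so no replicate numbers are shared between groups.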
